A study of Homo sapiens with 18 samples.

Results

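Anterior neural ectoderm made from a human pluripotent stem cell line was carried to day 4 in a midbrain medium or in a forebrain medium, and the messenger RNA of the cultures was compared. The comparison took 4 of the 18 libraries of the study: 2 of cells in the midbrain medium (aNE_M) and 2 of cells in the forebrain medium (aNE_T). Of the 37550 rows of the expression table, 14485 genes were tested, namely those with at least 1 TPM in at least 2 of these 4 libraries. TPM is a relative abundance of transcripts scaled for transcript length and for the library's total.

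All cells were wild-type H1 cells, an established human pluripotent stem cell line. Both groups spent the first 24 hours in the same definitive ectoderm medium with A8301 at 1 µM, Trametinib at 250 nM, C59 at 1 µM and LDN193189 at 100 nM. These agents inhibit TGF-beta receptors, MEK, WNT secretion and BMP receptors. Both were then replated at 75000 cells per cm2 for day 2 in a medium with A8301 at 1 µM, LDN193189 at 100 nM, C59 at 1 µM and the survival agent Thiazovivin at 1 µM. The forebrain medium held XAV939 at 1 µM, LDN193189 at 100 nM and FGF2 at 20 ng/mL on its first day; XAV939 inhibits tankyrase and thereby lowers WNT signalling inside the cell. The rest of the forebrain step and the composition of the midbrain medium are not given in the sources used here, so which agent separates the media is not known here. Other groups are used below as reference levels: aNE at day 2, plated at 37500 cells per cm2, aNE-derived cells at day 4 in a hindbrain medium (aNE_H), and cells of posterior origin in the same forebrain and midbrain media (pNE_T and pNE_M). The posterior cells had spent day 2 with A8301, LDN193189, Thiazovivin, XAV939 at 1 µM, FGF2 at 20 ng/mL and 50 nM of TTNPB, which activates retinoic acid receptors, and were plated at 150000 cells per cm2.

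In the embryo the anterior neural plate is divided into forebrain, midbrain and hindbrain along the head-to-tail axis. Low WNT activity permits forebrain and eye fates, which depend on SIX3, HESX1 and RAX, and higher WNT activity shifts the plate towards midbrain. A signalling centre at the boundary of midbrain and hindbrain, the isthmus, secretes FGF8 and WNT1 and is surrounded by cells that express EN1, EN2, PAX2 and PAX5.

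The 4 libraries had between 13686 and 14384 genes at 1 TPM or more. Pearson's r across genes, on the log2(TPM + 1) scale, was 0.985 between the aNE_M libraries and 0.988 between the aNE_T libraries, and genes are not independent replicates. Mitochondrial genes took 1.53% and 1.85% of the TPM in aNE_M and 2.52% and 2.29% in aNE_T; the part of this difference in the results was not tested. TPM keeps no read number, so the depth behind each value is unknown. The libraries are 2 biological replicates per group per the series' design text. An exact permutation test of 2 against 2 cannot give a p below 0.333, so the p-values come from a limma model that pools the spread over the 18 libraries of 9 groups.

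A change was called where the adjusted p was under 0.05 and the difference was of at least 1 on the log2(TPM + 1) scale, which understates the change of genes with low values. By this rule 1707 genes changed, which is 11.8% of the genes tested. Of these, 592 were higher in aNE_M (4.09% of the tested genes) and 1115 were lower (7.70%). These shares are the background for the count of each gene list that follows. Higher calls made up 34.7% of all calls, and 44.9% under quantile normalization, so the balance of the directions depended on the scaling. The median difference of all tested genes was -0.04. A difference of at least 3 upwards was found for 84 of the called genes and one of at least 3 downwards for 99. In 1706 of the 1707 called genes the values of the groups did not overlap. The called genes were chosen for a large difference, which leaves little room for overlap. The share over all tested genes was not counted, so nothing is read from this count. Because the samples are bulk cultures, fewer cells of a type and less RNA per cell cannot be told apart in any of the results that follow.

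**Figure D1:**
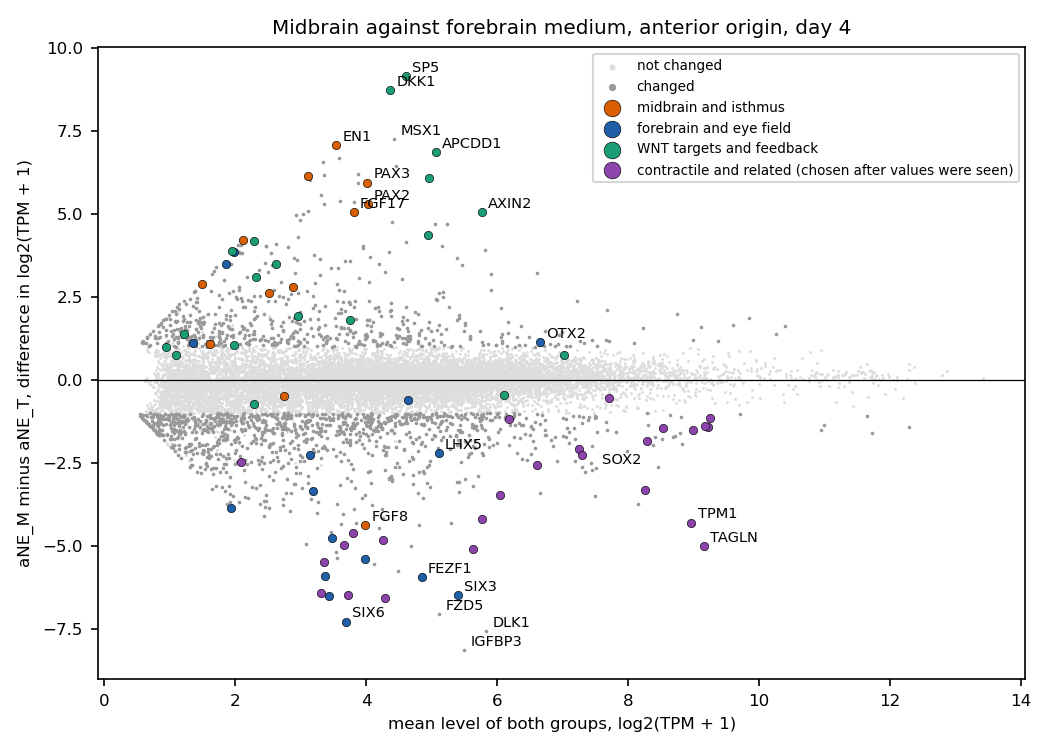
Each point is 1 of the 14485 tested genes, with its mean level in both groups on the x axis and the aNE_M minus aNE_T difference on the y axis, both in log2(TPM + 1). Dark grey points are the 1707 changed genes, and colours mark 4 gene lists; SP5 and DKK1 lie at the top, and IGFBP3, DLK1 and SIX6 at the bottom.

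Midbrain and isthmus genes were among the largest rises in the midbrain medium. Of 17 such genes 12 were tested, 10 were higher in aNE_M and 1 was lower, against 4.09% higher and 7.70% lower among all tested genes. Their median difference was 3.56, beside -0.04 for all tested genes. That median depends on the pseudocount, since EN1 and EN2 were listed at 0 in both aNE_T libraries.

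EN1 and EN2 encode the engrailed homeodomain factors that mark the midbrain and the anterior hindbrain. EN1 was at 141 and 128 TPM in the aNE_M libraries and was listed at 0 in both aNE_T libraries (adjusted p = 2.33e-12). EN2 was at 18.8 and 16.6 TPM in aNE_M and also listed at 0 in both aNE_T libraries (adjusted p = 6.7e-10). CNPY1, which modulates FGF signalling at the isthmus, was at 8.02 and 5.47 TPM in aNE_M, and in aNE_T at 0.0411 TPM in 1 library and listed at 0 in the other. All 3 genes were thus at or near 0 in the forebrain medium.

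The paired-box factors PAX2 and PAX5 act with engrailed at the boundary. PAX2 was at 100.4 and 101 TPM in aNE_M and at 1.73 and 1.47 TPM in aNE_T, a difference of 5.29 ± 0.18 (SE, adjusted p = 6.59e-11). PAX5 was at 68.6 and 74.7 TPM in aNE_M and at 0.0574 TPM or 0 in aNE_T, a difference of 6.14 ± 0.35 (SE, adjusted p = 9.02e-09). The groups were far apart in both genes, and the replicates were close. PAX3, a related factor of the dorsal neural tube and the dorsal midbrain, was at 120.4 and 130 TPM in aNE_M and at 1.45 and 0.715 TPM in aNE_T. PAX7, its close relative, was at 4.68 and 4.62 TPM in aNE_M and at 7.89 and 6.16 TPM in aNE_T, and its difference of -0.50 was under the threshold.

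LMX1B, which acts upstream of isthmus signals and in midbrain dopaminergic precursors, was at 17.0 and 20.0 TPM in aNE_M and 1.70 and 1.85 TPM in aNE_T, a difference of 2.81 ± 0.21 (SE, adjusted p = 1.77e-07). TAL2, a midbrain basic helix-loop-helix factor, was at 11.1 and 14.8 TPM in aNE_M and 1.83 and 0.829 TPM in aNE_T. The untested members PAX8, LMX1A, WNT1, DMBX1 and BARHL1 did not exceed 1.14 TPM in any of the 4 libraries. WNT1, the WNT ligand of the isthmus, was therefore near the bottom of the scale in both media.

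The FGF ligands of the boundary did not move together. FGF17 was at 86.1 and 74.3 TPM in aNE_M and 1.46 and 1.40 TPM in aNE_T, a rise of 5.06 ± 0.18 (SE, adjusted p = 1.06e-10). FGF18 rose by 1.09 ± 0.20 (SE, adjusted p = 7.94e-04) to 3.89 and 3.09 TPM, and was not called without aNE_M replicate 1 (0.96). FGF8 went the other way, with 77.5 and 64.9 TPM in aNE_T and 2.50 and 2.42 TPM in aNE_M, a difference of -4.38 ± 0.33 (SE, adjusted p = 1.87e-07). FGF8 is also made by the anterior edge of the forebrain, so its level is not specific to the isthmus.

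**Figure D2:**
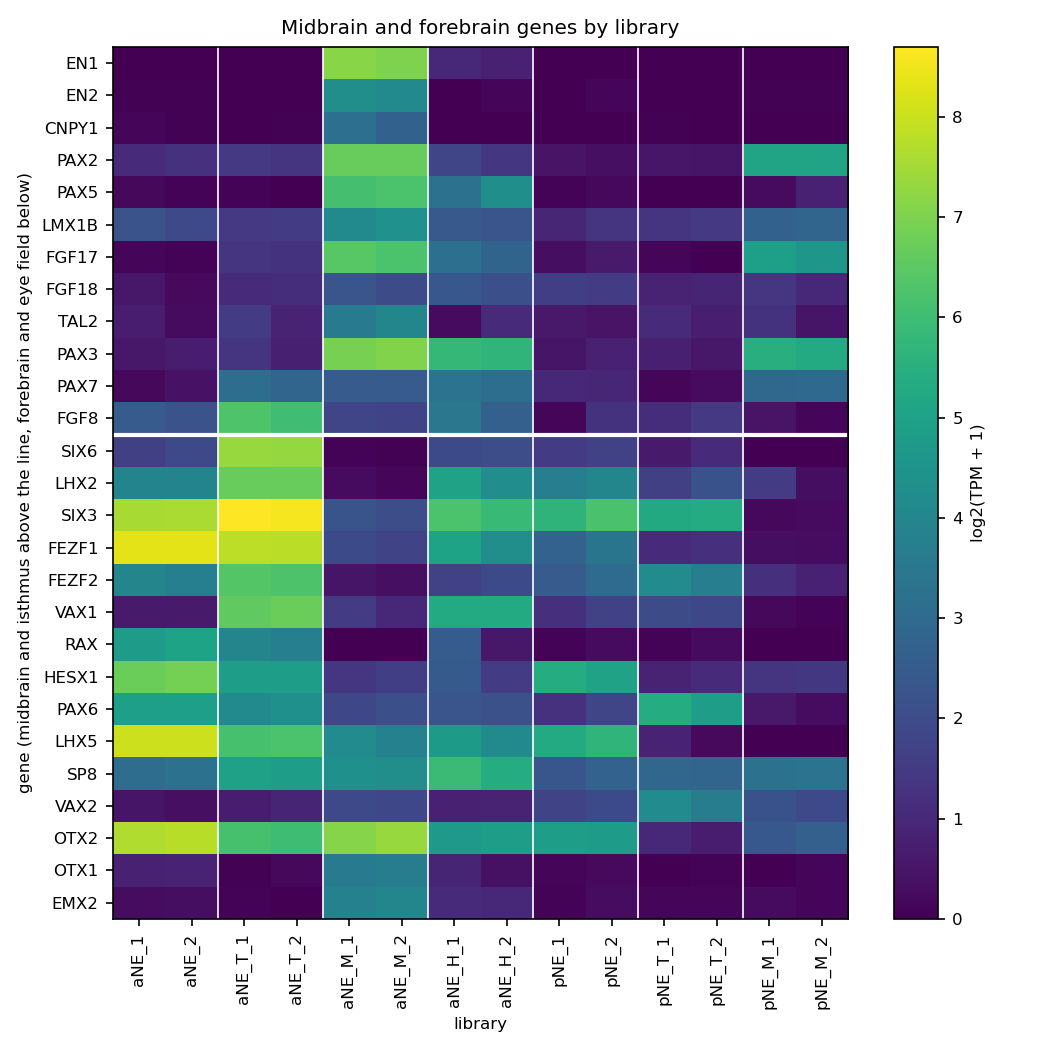
The heat map gives log2(TPM + 1) of the 12 tested midbrain and isthmus genes (above the line) and 15 of the 16 tested forebrain and eye-field genes (below it) in 14 libraries, with vertical lines between groups. In aNE_M the upper block is bright except for FGF8, FGF18 and PAX7, and the lower block is dark except for OTX2, SP8, LHX5, OTX1 and EMX2.

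Forebrain and eye-field genes were mostly lower in the midbrain medium. Of 24 genes 16 were tested, 11 were lower and 4 were higher, beside 4.09% higher and 7.70% lower among all tested genes, with a median difference of -3.61. That median also depends on the pseudocount, since RAX was listed at 0 in both aNE_M libraries. The summed level of the 24 genes was 1328 to 1374 TPM in aNE_T and 215 to 237 TPM in aNE_M.

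SIX3 and SIX6 are homeodomain factors that specify the rostral forebrain and the eye. SIX3 was at 414 and 379.5 TPM in aNE_T and 3.78 and 3.16 TPM in aNE_M, a difference of -6.48 ± 0.15 (SE, adjusted p = 1.77e-12). SIX6 was at 161 and 159 TPM in aNE_T and at most 0.0584 TPM in aNE_M, a difference of -7.27 ± 0.18 (SE, adjusted p = 2.7e-12). LHX2, a LIM homeodomain factor of cortex and eye, was at 101 and 102 TPM in aNE_T and at most 0.192 TPM in aNE_M. RAX, the eye-field factor, was at 14.7 and 12.4 TPM in aNE_T and listed at 0 in both aNE_M libraries (adjusted p = 6.83e-06).

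The zinc-finger repressors FEZF1 and FEZF2 keep the forebrain free of caudal identity. FEZF1 was at 227 and 220.3 TPM in aNE_T and at 2.89 and 2.48 TPM in aNE_M, a difference of -5.93 ± 0.23 (SE, adjusted p = 2.54e-10). FEZF2 was at 82.6 and 75.4 TPM in aNE_T and at most 0.414 TPM in aNE_M. VAX1, of the ventral forebrain and optic stalk, was at 93.7 and 107 TPM in aNE_T and 1.92 and 1.00 TPM in aNE_M. HESX1, an early anterior repressor, fell by 3.36, LHX5 by 2.19 and PAX6 by 2.26 on the log2 scale. These 3 genes kept a level above 1 TPM in both aNE_M libraries, and LHX5 was at 17.2 and 13.2 TPM there.

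The head-organising OTX genes rose instead. OTX2, needed for both forebrain and midbrain, was at 136 and 162 TPM in aNE_M and 71.0 and 62.7 TPM in aNE_T, a rise of 1.14 ± 0.14 (SE, adjusted p = 2.48e-05). OTX1 was at 10.9 and 11.6 TPM in aNE_M but no more than 0.128 TPM in aNE_T. EMX2, a factor of the dorsal telencephalon and diencephalon, was at 13.2 and 14.9 TPM in aNE_M but no more than 0.0558 TPM in aNE_T. VAX2 rose by 1.11 to 2.79 and 2.73 TPM. SP8 was at 19.6 and 18.7 TPM in aNE_M and 30.7 and 28.6 TPM in aNE_T, which was under the fold threshold (-0.60 ± 0.18, SE). OTX2, SIX3, EMX2 and DLX6 have antisense partners, and whether the authors' quantification used the strand is not given in the sources used here, so their values are uncertain to that extent.

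Of 18 hindbrain genes, mostly of the HOX clusters, 15 did not exceed 0.369 TPM in any of the 4 libraries. The 3 tested ones were all called, 1 higher and 2 lower, and the summed level of the 18 was 35.4 to 36.7 TPM in aNE_T and 14.6 to 19.97 TPM in aNE_M. GBX2, the factor that opposes OTX2 at the midbrain-hindbrain boundary, was at 29.3 and 30.7 TPM in aNE_T and at 16.2 and 9.67 TPM in aNE_M, a difference of -1.19 ± 0.20 (SE, adjusted p = 2.68e-04); without aNE_M replicate 2 the difference was -0.85 and not called. FGF3 was at 2.11 and 2.50 TPM in aNE_M and listed at 0 in both aNE_T libraries. Of the 4 tested Iroquois genes, which pattern the neural plate caudal to the rostral forebrain, IRX1 alone was called, at 15.9 and 12.8 TPM in aNE_M against 1.38 and 1.90 TPM in aNE_T. IRX2, IRX3 and IRX5 differed by -0.52, 0.11 and -0.09.

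Genes that WNT signalling switches on, several of which feed back on the pathway, were higher in the midbrain medium. Of 22 such genes 19 were tested, 13 were higher in aNE_M and 0 were lower, against 4.09% and 7.70% of all tested genes. At an unadjusted p under 0.05 in the limma fit 17 were higher and 1, SALL4 (-0.45), was lower. That threshold was passed by 6787 of all 14485 tested genes, in either direction. The median difference of the list was 3.11. The summed level of the 22 genes was 2352 to 2469 TPM in aNE_M and 216 to 219 TPM in aNE_T.

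The proximal promoters of SP5 and DKK1, the genes with the largest rises of the comparison, are shown because they are well-known WNT targets and hold the short sequence that TCF/LEF factors bind. Each is 300 bases, from 250 before the start of transcription to 50 from it on, from RefSeq (GRCh38.p14), 5′ to 3′ on the gene's strand. SP5 is at chr2:170715087-170715386 on the plus strand and DKK1 at chr10:52314031-52314330 on the plus strand. Capitals mark the letters CTTTGAT or CTTTGTT, which were searched on both strands (ATCAAAG and AACAAAG on the other). The second form also holds the core that SOX factors bind. The match begins 109 bases before the start in SP5 and 76 bases before it in DKK1.
SP5: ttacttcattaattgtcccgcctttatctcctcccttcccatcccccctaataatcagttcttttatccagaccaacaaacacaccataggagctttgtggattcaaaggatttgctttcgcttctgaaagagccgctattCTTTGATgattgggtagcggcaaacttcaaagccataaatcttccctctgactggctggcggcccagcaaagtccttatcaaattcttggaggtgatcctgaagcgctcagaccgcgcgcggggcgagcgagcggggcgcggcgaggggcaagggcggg
DKK1: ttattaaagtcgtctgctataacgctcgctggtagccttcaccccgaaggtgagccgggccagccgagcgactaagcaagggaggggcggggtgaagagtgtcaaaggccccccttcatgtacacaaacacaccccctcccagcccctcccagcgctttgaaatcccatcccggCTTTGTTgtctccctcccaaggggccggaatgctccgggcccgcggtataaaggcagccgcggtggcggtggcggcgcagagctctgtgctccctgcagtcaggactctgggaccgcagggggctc
Such a match was in 7.61% of the 35116 promoters in the RefSeq table. Counted by gene, the share was 9.2%. Of the 22 WNT-responsive genes, 11 had a promoter in that table and 3 of these genes, DKK1, SP5 and TCF7, held a match. The list was chosen to hold genes that WNT switches on, so nothing is read from this count beside the share of all genes. A match is a string of letters and does not show binding.

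SP5 encodes a zinc-finger factor that is induced by WNT in many tissues. It was at 706 and 473 TPM in aNE_M, and in aNE_T at 0.0243 TPM in 1 library and 0 in the other, a difference of 9.16 ± 0.39 (SE, adjusted p = 5.87e-10). DKK1, a secreted inhibitor of the WNT co-receptor LRP6, was at 387 and 459 TPM in aNE_M and listed at 0 in both aNE_T libraries (adjusted p = 1.96e-13). The 2 aNE_M libraries differed from each other in SP5, and both were far above aNE_T.

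Several induced genes encode brakes on the pathway. AXIN2, a scaffold of the complex that degrades beta-catenin, was at 315 and 312 TPM in aNE_M and 7.80 and 9.09 TPM in aNE_T, a rise of 5.06 ± 0.10 (SE, adjusted p = 1.96e-13). APCDD1, a membrane inhibitor of WNT signalling, was at 337 and 373 TPM in aNE_M and 2.87 and 1.38 TPM in aNE_T. NKD1, which antagonises Dishevelled, was at 256 and 235 TPM in aNE_M and 4.28 and 1.55 TPM in aNE_T. NOTUM, an enzyme that removes the lipid of WNT proteins, was at 22.4 and 17.2 TPM in aNE_M but no more than 0.303 TPM in aNE_T. DKK4 was at 11.2 and 17.0 TPM and listed at 0 in both aNE_T libraries. WIF1, which binds WNT proteins outside the cell, rose by 3.11 ± 0.25 (SE, adjusted p = 3.04e-07) to 12.1 and 15 TPM.

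The nuclear partners of beta-catenin rose as well. LEF1 was at 125 and 152 TPM in aNE_M and 5.39 and 6.09 TPM in aNE_T, a rise of 4.37 ± 0.21 (SE, adjusted p = 1.61e-09), and TCF7 rose by 1.92. The receptor-degrading ligases ZNRF3 and RNF43 rose by 1.80 and 1.39, and the TNF-receptor family member TNFRSF19 by 3.49. CCND1 (cyclin D1) was at 174 and 160.3 TPM in aNE_M and 99.2 and 98.6 TPM in aNE_T, a difference of 0.75 that was under the fold threshold. CDX2, a caudal homeobox gene, was at 1.76 and 1.67 TPM in aNE_M.

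**Figure D3:**
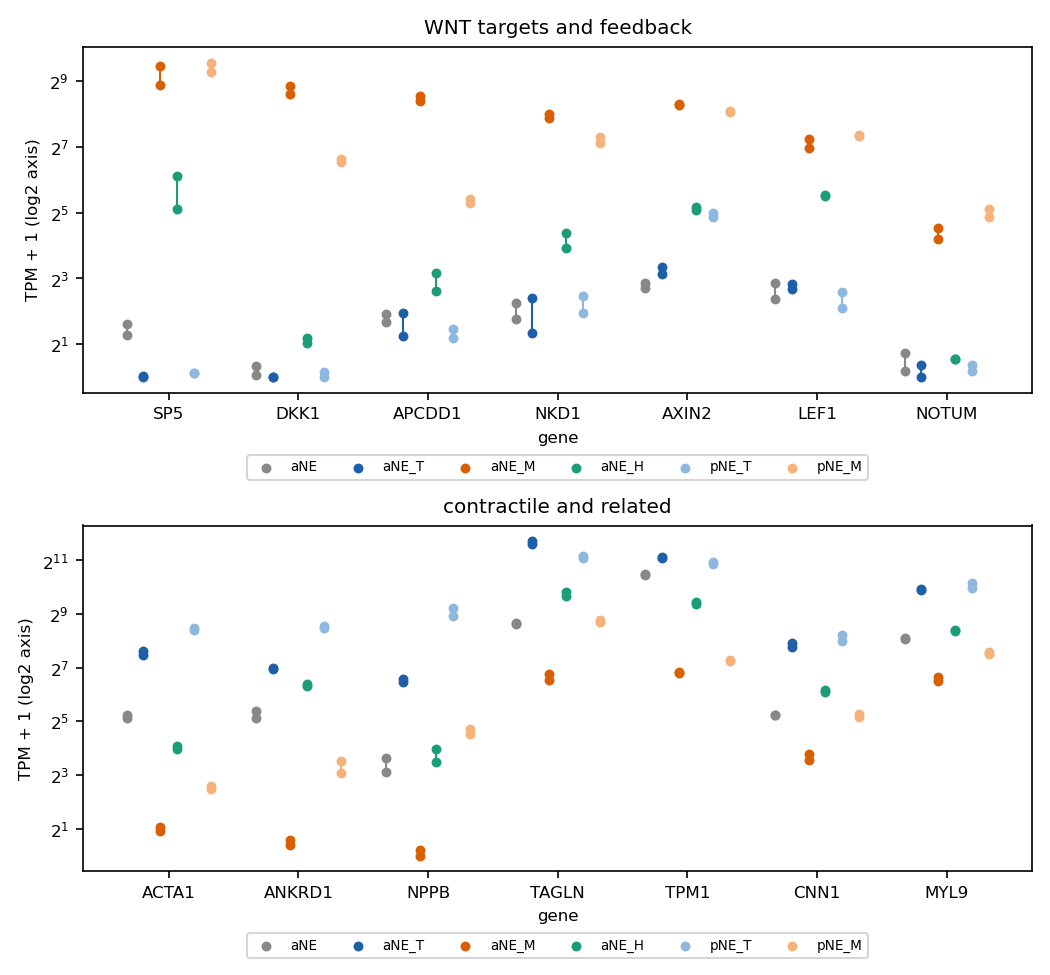
TPM + 1 on a log2 axis for 7 WNT-responsive genes (upper panel) and 7 contractile and related genes (lower panel); each dot is a library and a line joins the 2 libraries of a group. In the upper panel aNE_M lies above aNE_T, aNE and aNE_H for every gene, and in the lower panel aNE_M lies below all of them.

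The WNT ligands, receptors and extracellular antagonists changed in both directions. Of 40 genes 31 were tested, 5 were higher and 12 lower in aNE_M, beside 4.09% higher and 7.70% lower among all tested genes. FZD5 and FZD8, the WNT receptors of the anterior forebrain and eye field, had the steepest falls of the set. FZD5 was at 408 and 391 TPM in aNE_T and 1.95 and 2.05 TPM in aNE_M, a difference of -7.06 ± 0.14 (SE, adjusted p = 3.82e-13). FZD8 was at 121 and 114 TPM in aNE_T and 1.40 and 1.70 TPM in aNE_M. FZD10, a receptor of the dorsal midbrain and spinal cord, rose from 0.374 and 0.598 TPM to 50.3 and 48.6 TPM. FZD9 rose by 1.96, FZD2 and FZD6 fell by 1.42 and 1.55, and FZD7 differed by 0.98, just under the threshold, and was called with median-ratio scaling (1.02). The co-receptor LRP6 was at 30.6 and 33.8 TPM in aNE_M and 30.2 and 27.4 TPM in aNE_T and was not called.

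The secreted frizzled-related proteins, decoys for WNT ligands, were lower in aNE_M. SFRP1 was at 410.4 and 405 TPM in aNE_T and 69.7 and 73.5 TPM in aNE_M, a fall of -2.49 ± 0.07 (SE, adjusted p = 1.08e-11). SFRP2 fell from 285 and 274 TPM to 49.6 and 51.4 TPM, FRZB by 1.49 on the log2 scale and SFRP4 by 3.20. Secreted and membrane inhibitors therefore moved both ways, with DKK1, APCDD1 and NOTUM higher and the 4 tested SFRP-type genes lower.

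WLS, the carrier that WNT proteins need for secretion, was at 173 and 208 TPM in aNE_M and 5.76 and 7.03 TPM in aNE_T, a rise of 4.69 ± 0.12 (SE, adjusted p = 4.34e-12). WNT4 was at 45.2 and 45.3 TPM in aNE_M and 0.559 and 0.356 TPM in aNE_T. WNT8B reached 2.06 and 4.19 TPM in aNE_M and was not called without replicate 2 (0.90), and WNT5A fell from 20.1 TPM in both aNE_T libraries to 5.91 and 5.82 TPM. The R-spondins RSPO3 and RSPO4, which strengthen WNT signals, and the antagonist DKK2 fell by 1.64, 1.05 and 1.54. RSPO4 was not called without aNE_M replicate 2 (-0.67).

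Of the genes that report FGF signalling through ERK all 20 were tested, and 0 were higher and 3 lower by the limma call, beside 4.09% higher and 7.70% lower among all tested genes. By adjusted p alone 2 were higher and 10 lower, beside 2622 higher and 2997 lower among all 14485 tested genes. At an unadjusted limma p under 0.05, 2 were higher and 11 lower, while 6787 of all tested genes passed in either direction. DUSP6, the phosphatase that switches ERK off, was at 228 and 225 TPM in aNE_M and 277 and 272 TPM in aNE_T. SPRY1, SPRY2 and ETV5 differed by -0.68, -0.47 and -0.41, and SPRY4 and ETV4 by 0.69 and 0.74. At day 2 the mean level of DUSP6 was 31.4 TPM and that of SPRY4 5.71 TPM, so these reporters were well above the day-2 level in both media. The 3 falls were IER3, from 127 TPM in both aNE_T libraries to 16.8 and 14 TPM, PHLDA1, from 15.4 and 14.9 TPM to 1.72 and 1.68 TPM, and EGR1, from 20.1 and 18 TPM to 3.38 and 3.74 TPM. EGR1 and IER3 are immediate-early genes that respond to many stimuli.

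Of the FGF ligands and receptors, 17 of 22 were tested, 6 were higher and 4 lower. FGF19 was at 67.5 and 66.8 TPM in aNE_M and 0.556 and 0.317 TPM in aNE_T, a rise of 5.57 ± 0.20 (SE, adjusted p = 7.88e-11). FGF12, an intracellular member that is not secreted, reached 21.7 and 44.0 TPM against 0.680 and 2.31 TPM. FGFR3 was at 43.6 and 42.0 TPM in aNE_T and 3.47 and 3.81 TPM in aNE_M, and FGFRL1 fell by 1.87. FGFR4 rose by 1.24. FGFR1, the most abundant of the receptors, was at 454 and 446 TPM in aNE_T and 215 and 236 TPM in aNE_M; its difference was a little short of the fold threshold (adjusted p = 7.39e-07), which it passed without aNE_M replicate 2 (-1.06) or aNE_T replicate 2 (-1.01).

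Dorsal genes of the neural tube changed unevenly, with 9 of 17 tested, 4 higher and 1 lower. MSX1, a homeobox gene of the dorsal midline, was at 279.8 and 243 TPM in aNE_M and 0.393 and 1.13 TPM in aNE_T, a rise of 7.25 ± 0.20 (SE, adjusted p = 8.02e-12). MSX2 rose to 38.5 and 36.0 TPM from 2.71 and 2.65 TPM. ZIC1 was at 80.0 and 73.9 TPM in aNE_T and 29.4 and 39.5 TPM in aNE_M, a difference of -1.15 ± 0.30 (SE, adjusted p = 0.00792), which was not called without aNE_M replicate 1 (-0.94) or with a pseudocount of 0.1 (adjusted p = 0.056). Among genes that respond to BMP, ID1, ID2 and ID3 differed by -0.55, 0.03 and 0.19, SMAD6 and SMAD7 by -0.64 and 0.39, and ID4 fell by 1.80.

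Of the 20 BMP and TGF-beta genes 16 were tested, 4 were higher and 4 lower. The ligands BMP5 and BMP2 rose, BMP5 to 13.6 and 16.9 TPM from at most 0.210 TPM and BMP2 to 42.8 and 47.5 TPM from 11.9 and 12.4 TPM. BMP7 fell from 163 and 156 TPM to 52.2 and 48.6 TPM. NOG, the secreted BMP antagonist noggin, rose from 2.84 and 2.94 TPM to 51.7 and 39.995 TPM, a difference of 3.58 ± 0.19 (SE, adjusted p = 4.32e-09). CER1, an antagonist made by anterior tissues, fell from 8.69 and 10.6 TPM to at most 0.212 TPM.

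Ventral and hedgehog genes were mostly under the filter or not called. Of 21 genes 11 were tested, 2 were higher and 1 lower. The number higher was 4 without aNE_M replicate 1 and under quantile normalization, and 1 without aNE_M replicate 2 or aNE_T replicate 2. SHH itself, FOXA2, NKX2-1 and OLIG2 were among the untested members, none of which exceeded 0.602 TPM. NKX6-1, a factor of the ventral neural tube, reached 4.87 and 6.46 TPM in aNE_M against at most 0.0425 TPM. GLI1 was at 3.31 and 8.91 TPM in aNE_M and 1.65 and 1.27 TPM in aNE_T, and its rise of 1.41 was not called without aNE_M replicate 2 (0.81) or without either aNE_T replicate (1.52 and 1.30). PTCH1, the hedgehog receptor and target, differed by 0.14.

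Retinoid genes gave a mixed picture, with 15 of 21 tested, 5 higher and 1 lower. STRA6, the retinol importer, was at 146 and 152 TPM in aNE_M and 10.7 and 10.8 TPM in aNE_T, a rise of 3.67 ± 0.12 (SE, adjusted p = 3.07e-11). RDH10, which makes retinaldehyde from retinol, rose from 2.88 and 2.92 TPM to 56.0 and 66.0 TPM. The binding proteins moved in opposite directions: CRABP1 fell from 613 and 595 TPM to 53.5 and 52.5 TPM (-3.49 ± 0.06, SE, adjusted p = 1.51e-13), and CRABP2 rose from 748 and 776 TPM to 2107 and 1856 TPM. ALDH1A3, a retinaldehyde dehydrogenase, rose to only 2.77 and 2.02 TPM. The retinoic acid-induced gene CYP26A1 differed by -0.97, under the threshold, at 2.11 and 1.15 TPM in aNE_M and 3.57 and 4.63 TPM in aNE_T. It was called lower with a pseudocount of 0.1 (-1.33), without aNE_M replicate 1 (-1.24) and without aNE_T replicate 1 (-1.12).

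Of the genes shared by neural progenitors all 18 were tested, 9 were lower and 4 higher in the midbrain medium, beside 4.09% higher and 7.70% lower among all tested genes, and the median difference was -0.96. SOX2 was at 457 and 453 TPM in aNE_T and 73.2 and 70.4 TPM in aNE_M, a fall of -2.65 ± 0.11 (SE, adjusted p = 5.1e-10). SOX21, a repressor of the same family, was at 46.0 and 46.3 TPM in aNE_T and at most 0.613 TPM in aNE_M. SOX1 and SOX3 fell by 1.96 and 1.73, the intermediate filament NES by 1.72, NCAM1 by 1.99 and ZBTB16, a marker of neural rosettes, by 2.78. CDH2 (N-cadherin) was at 159 and 192 TPM in aNE_M and 297 and 304 TPM in aNE_T and was under the threshold. POU3F2 was the steepest rise of the set, from 0.515 and 0.460 TPM to 22.3 and 26.5 TPM, and DACH1 rose by 2.12.

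Markers of differentiating neurons showed rises in a few members. Of 20 genes 8 were tested, 4 were higher and 3 lower. STMN2, a microtubule regulator of neurons, was at 20.4 and 22.4 TPM in aNE_M and 0.317 and 0.401 TPM in aNE_T, a rise of 4.04 ± 0.20 (SE, adjusted p = 2.36e-09). TUBB3 rose from 184 and 165 TPM to 536 and 489.7 TPM, HES6 rose by 1.66, and the proneural gene NEUROG1 was at 1.68 and 3.67 TPM and listed at 0 in both aNE_T libraries. INSM1, MYT1 and EBF3 fell by 1.15, 1.48 and 1.55, and MYT1 was not called without aNE_T replicate 2 (-0.85) or without either aNE_M replicate (-1.45 and -1.51). The neuronal markers DCX and ELAVL4 were under the filter, at most 1.34 TPM and 0.173 TPM.

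Notch pathway genes, which hold progenitors back from differentiation, included 3 rises and 4 falls among 15 tested of 16. The ligand DLL1 was at 55.8 and 47.2 TPM in aNE_T and 3.74 and 3.76 TPM in aNE_M, a fall of -3.46 ± 0.35 (SE, adjusted p = 3.27e-06). The target HES1 fell from 104 and 98.7 TPM to 25.9 and 22.3 TPM, HES4 by 1.70, and the receptor NOTCH2 by 1.94. The related targets HEY1 and HEY2 rose by 2.70 and 2.45, HEY1 to 13.8 and 14.7 TPM.

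Genes of the contractile actin cytoskeleton fell together and included some of the largest values that changed. This group was chosen after its values were seen, because ACTA1, ANKRD1, NPPB and MYL7 were among the 15 largest falls; its counts are therefore a description and were not tested as a group. It holds smooth and cardiac muscle actins and their partners, the factor SRF, which controls many of them, and targets of the YAP and TAZ co-activators. Of its 25 genes, 24 were lower in aNE_M and 0 were higher by the limma call, beside 7.70% and 4.09% of all tested genes. At an unadjusted limma p under 0.05, 25 were lower and 0 higher, while 6787 of all 14485 tested genes passed in either direction. The summed level of the 25 genes was 13989 to 14048 TPM in aNE_T and 2529 to 2639 TPM in aNE_M.

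Promoters of ACTA1, ACTC1 and MYL7, muscle genes among the steep falls, are shown because they hold the CArG box, the element that SRF binds. The windows are again 300 bases from RefSeq (GRCh38.p14), 5′ to 3′ on the gene's strand: chr1:229434045-229434344, chr15:34795500-34795799 and chr7:44141283-44141582, all on the minus strand. Capitals mark the CArG box, which reads the same on both strands by rule. It begins 97, 109 and 61 bases before the start of transcription.
ACTA1: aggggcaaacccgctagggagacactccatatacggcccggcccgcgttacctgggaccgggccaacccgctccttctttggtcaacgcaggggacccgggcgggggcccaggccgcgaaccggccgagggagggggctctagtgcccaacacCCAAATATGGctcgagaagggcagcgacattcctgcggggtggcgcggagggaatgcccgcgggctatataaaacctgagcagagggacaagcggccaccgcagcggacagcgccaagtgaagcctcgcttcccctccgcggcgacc
ACTC1: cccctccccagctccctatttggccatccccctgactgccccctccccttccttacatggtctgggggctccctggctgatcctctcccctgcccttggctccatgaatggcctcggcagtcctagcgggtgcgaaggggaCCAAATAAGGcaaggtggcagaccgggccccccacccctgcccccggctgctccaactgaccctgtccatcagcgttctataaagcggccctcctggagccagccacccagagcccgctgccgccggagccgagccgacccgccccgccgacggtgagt
MYL7: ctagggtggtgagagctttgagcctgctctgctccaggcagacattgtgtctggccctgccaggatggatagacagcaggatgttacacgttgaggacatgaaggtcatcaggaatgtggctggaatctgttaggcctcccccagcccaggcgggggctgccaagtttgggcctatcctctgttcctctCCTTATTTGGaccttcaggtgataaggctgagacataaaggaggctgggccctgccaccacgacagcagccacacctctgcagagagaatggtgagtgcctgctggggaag
A CArG box was in 1.29% of the 35116 promoters, and by gene the share was 1.6%. Of the 25 contractile and related genes 20 had a promoter in the table, and 9 of these genes held the box: ACTA1, ACTC1, ACTG2, ACTN1, CNN2, FLNA, MYL7, SRF and TPM4. The list was chosen to hold SRF and genes that SRF controls, so nothing is read from this count beside the share of all genes. The match does not show that SRF was bound in these cells.

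TAGLN and TPM1, an actin cross-linker and a tropomyosin, were among the abundant messages of the forebrain medium. TAGLN was at 3140 and 3369 TPM in aNE_T and 107 and 93.2 TPM in aNE_M, a fall of -5.01 ± 0.08 (SE, adjusted p = 6.41e-14). TPM1 was at 2222 and 2209 TPM in aNE_T and 111 and 113 TPM in aNE_M. CNN1 fell from 221 and 239.8 TPM to 12.8 and 10.7 TPM, and the myosin light chain MYL9 from 982 and 944 TPM to 90.1 and 101 TPM. The replicates of each group differed far less than the groups.

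Of the muscle actins, ACTA1 was at 198 and 178 TPM in aNE_T and 0.900 and 1.09 TPM in aNE_M (-6.57 ± 0.11, SE, adjusted p = 6.41e-14). ACTC1 was at 70.4 and 65.0 TPM in aNE_T and 1.83 and 1.81 TPM in aNE_M, and ACTA2 fell by 2.07. These actin genes are closely related and may share reads, so the split of reads between them is uncertain to that extent. MYL7 was at 71.9 and 62.8 TPM in aNE_T and at most 0.545 TPM in aNE_M. The non-muscle myosin MYH10 was the member not called, with a difference of -0.53, and SRF itself fell by 1.16.

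Secreted and stretch-responsive targets of YAP and TAZ on the same list were also lower. The list was chosen after its values were seen, so their shared direction is not a separate result. CCN1 was at 289.9 and 286 TPM in aNE_T and 8.51 and 6.54 TPM in aNE_M, and CCN2 at 222 and 214 TPM against 18.8 and 18.7 TPM. ANKRD1 was at 126 and 122 TPM in aNE_T and at most 0.491 TPM in aNE_M, a difference of -6.49 ± 0.21 (SE, adjusted p = 2.56e-11). NPPB, the natriuretic peptide gene, was at 87.5 and 93.9 TPM in aNE_T, and in aNE_M at 0.156 TPM in 1 library and 0 in the other. THBS1, which also responds to TGF-beta, fell by 4.83.

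**Figure D4:**
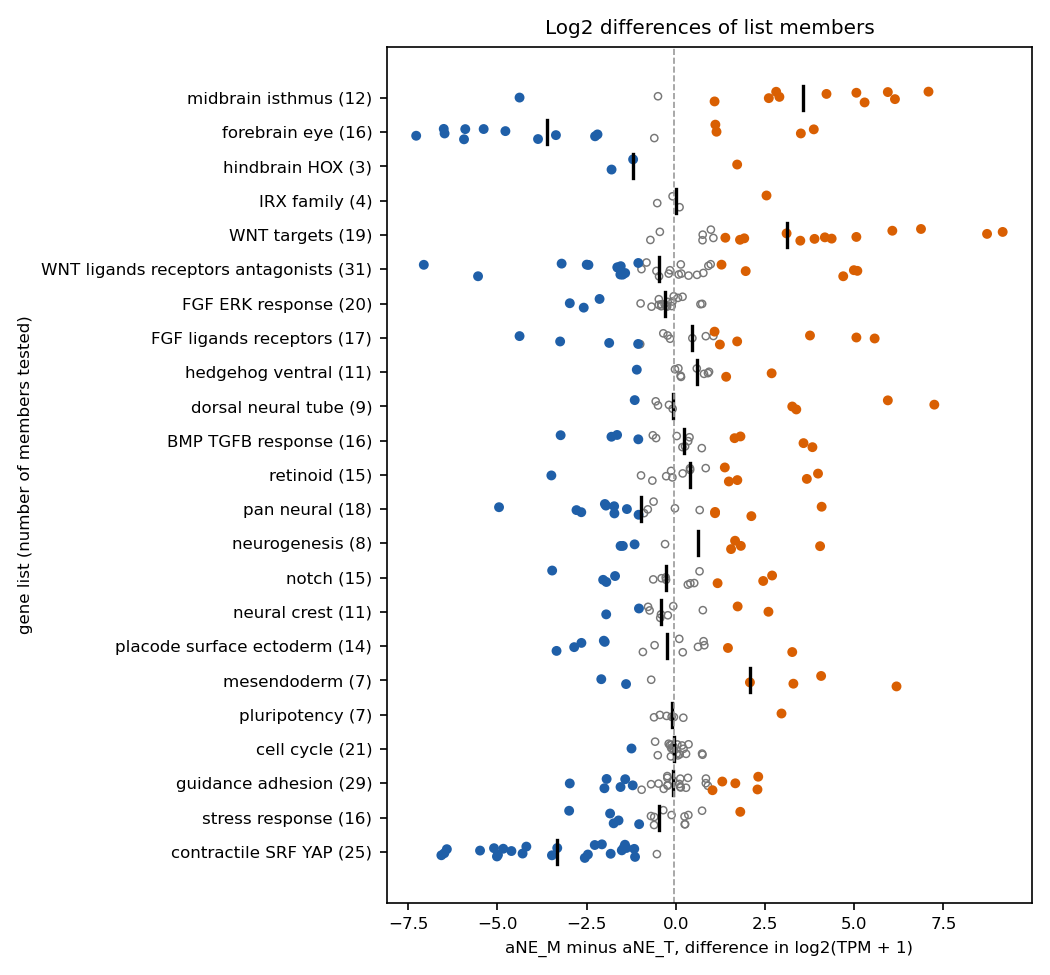
Each circle is a tested member of a gene list, placed by its aNE_M minus aNE_T difference in log2(TPM + 1); filled circles were called (orange higher, blue lower), open circles were not. Black bars are list medians and the dashed line is the median of all tested genes (-0.04); the midbrain and WNT-target lists lie to the right and the forebrain and contractile lists to the left.

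Cell-cycle and stress genes were counted in the same way. Of 21 tested cell-cycle genes 0 were higher and 1 was lower by the limma call, beside 4.09% higher and 7.70% lower among all tested genes. These cell-cycle counts are near those shares, so nothing is read from them. At an unadjusted limma p under 0.05, 5 were higher and 4 lower, while 6787 of all 14485 tested genes passed in either direction. The gene called lower, cyclin gene CCND2, was at 51.6 and 54.8 TPM in aNE_T and 19.1 and 24.7 TPM in aNE_M. MKI67 was at 40.3 and 52.2 TPM in aNE_M and 49.7 and 46.3 TPM in aNE_T. Of 16 stress genes 5 were lower and 1 was higher, beside 4.09% higher and 7.70% lower among all tested genes. The lower ones included CHAC1, DDIT3, TRIB3 and ASNS, which the integrated stress response induces: CHAC1 was at 52.4 and 60.6 TPM in aNE_T and 5.76 and 6.74 TPM in aNE_M. ATF4, whose protein drives these genes and is set mainly by translation, differed by -0.35. GDF15 rose from 8.24 and 7.35 TPM to 31.7 and 27.9 TPM.

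Markers of other cells that such cultures can hold were measured beside these groups. Of the mesendoderm list 7 of 16 genes were tested, 4 were higher and 2 lower, and the summed level of the 16 genes was 130 to 147 TPM in aNE_M and 29.3 to 36.8 TPM in aNE_T. MIXL1, a homeobox gene of the primitive streak, was at 78.0 and 94.9 TPM in aNE_M and 0.250 and 0.145 TPM in aNE_T, a rise of 6.19 ± 0.26 (SE, adjusted p = 4.62e-10). EOMES was at 16.2 and 16.9 TPM in aNE_M but no more than 0.0524 TPM in aNE_T, and TBXT (brachyury) at 2.72 and 4.01 TPM against at most 0.0436 TPM. SOX17, which defines endoderm, was listed at 0 in all 4 libraries, and GSC fell by 2.09. EOMES and TBXT also respond to WNT. The part of mesendoderm cells in the rises of WNT-responsive genes was not tested.

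Of the neural crest list 11 of 14 genes were tested, 2 were higher and 2 lower (1 lower without aNE_M replicate 1 or with either other scaling), and the summed level was 125 to 132 TPM in aNE_M and 212 to 213 TPM in aNE_T. Its defining members SOX10, FOXD3 and TFAP2A did not exceed 1.39 TPM in any of the 4 libraries. SOX8 rose to 18.9 and 14.8 TPM and NGFR fell from 80.9 and 85.9 TPM to 20.7 and 21.0 TPM.

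Of the placode and surface ectoderm list 14 of 20 genes were tested, 2 were higher and 5 lower. DLX5, a homeobox gene of the preplacodal border, was at 62.7 and 62.4 TPM in aNE_T and 8.66 and 7.09 TPM in aNE_M. FOXI3 rose to 15.2 and 18 TPM from 0.740 and 0.922 TPM and KRT19 rose by 1.46. The summed level was 1158 to 1232 TPM in aNE_M and 809 to 826 TPM in aNE_T, whereas the median difference of the tested members was -0.25. The sum is weighted towards abundant members, and the defining genes TP63 and KRT5 were under 1 TPM. Of the pluripotency list 7 of 14 genes were tested and ZFP42 was called higher, at 42.5 and 47.7 TPM against 5.13 and 4.72 TPM. POU5F1, which has pseudogenes that make its value uncertain, was at 2.90 and 2.65 TPM in aNE_M and 2.66 and 3.57 TPM in aNE_T, and NANOG did not exceed 0.358 TPM.

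Among the 15 largest rises, 8 have been described and the others are TMEM132C, FOXB1, ZNF503, MYO3B, APLNR, EGFLAM and SP6. FOXB1, a forkhead factor of midbrain and diencephalon, was at 97.8 and 96.9 TPM in aNE_M but no more than 0.0332 TPM in aNE_T. ZNF503, a zinc-finger repressor, was at 211 and 195 TPM in aNE_M and 1.59 and 1.09 TPM in aNE_T, a rise of 6.45 ± 0.17 (SE, adjusted p = 4.91e-12). APLNR, the apelin receptor, also a marker of early mesoderm, was at 67.3 and 77.0 TPM in aNE_M but no more than 0.0482 TPM in aNE_T. SP6, a relative of SP5, was at 115 and 112 TPM against 0.669 and 1.08 TPM. TMEM132C, MYO3B and EGFLAM reached 114 and 127, 111 and 139, and 68.0 and 72.0 TPM in the aNE_M libraries, and none exceeded 0.711 TPM in aNE_T.

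The steepest fall was that of IGFBP3, which binds insulin-like growth factors. It was at 745 and 769 TPM in aNE_T and 1.51 and 1.87 TPM in aNE_M, a difference of -8.14 ± 0.11 (SE, adjusted p = 1.41e-14). DLK1, an imprinted gene for a Notch-ligand-like protein, was at 803 and 756 TPM in aNE_T and 2.98 and 3.35 TPM in aNE_M. PDGFB was at 96.6 and 89.1 TPM in aNE_T and at most 0.0795 TPM in aNE_M, and ANXA3 at 158 and 165 TPM against 1.47 and 2.66 TPM.

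Levels at day 2 show the starting point, at a lower plating density. Of the 592 genes higher in aNE_M, 431 had a day-2 mean nearer to that of aNE_T and 161 nearer to that of aNE_M, and 162 were under 1 TPM at day 2. The EN1, PAX5, FGF17 and DKK1 means at day 2 were 0, 0.0972, 0.0734 and 0.153 TPM. Of the 1115 genes lower in aNE_M, 587 were nearer to aNE_T and 528 nearer to aNE_M at day 2. The same division over all tested genes was not counted, so nothing is read from these counts. Among forebrain genes, FEZF1 was at a mean of 324 TPM, LHX5 at 258 TPM, SIX3 at 189.7 TPM and HESX1 at 111 TPM at day 2, whereas SIX6 and VAX1 were at 2.46 and 0.554 TPM. So the first 4 were present at day 2 and lower in aNE_M at day 4, and the other 2 were high at day 4 in aNE_T only, among these 3 groups. FEZF1 and LHX5 were lower than at day 2 in aNE_T as well, whereas SIX3 was higher there. TAGLN was at a mean of 400.2 TPM at day 2, between aNE_M and aNE_T.

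The aNE_H mean, of cells in the hindbrain medium, was between the aNE_T and aNE_M means for 452 of the 592 genes higher in aNE_M and for 912 of the 1115 lower ones, beside 44.0% of all tested genes. The changed genes were chosen for the distance between aNE_M and aNE_T, which widens the range that counts as between, so nothing is read from their higher share. AXIN2 was at a mean of 33.9 TPM in aNE_H, LEF1 at 45.1 TPM, SP5 at 50.9 TPM and SIX3 at 66.0 TPM. EN1 was at 0.869 TPM and EN2 at 0.0387 TPM there, near their forebrain-medium values, whereas PAX3 was at 52.3 TPM.

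The same media on cells of posterior origin changed 1241 genes, 8.57% of the 14485 tested, of which 454 were higher (3.13%) and 787 lower (5.43%) in pNE_M. The libraries are not shared with the anterior comparison. The tested genes were filtered on the aNE_M and aNE_T libraries alone, so genes expressed only in posterior cells were left out. With the filter over all 18 libraries, 1465 of 17033 tested genes changed between pNE_M and pNE_T. In both origins 217 genes were higher in the midbrain medium, which is 36.7% of the anterior rises and 47.8% of the posterior ones. In both, 424 were lower, 38.0% of the anterior falls and 53.9% of the posterior ones, and 41 were called in opposite directions. The posterior shares, 47.8% and 53.9%, count only genes that passed the anterior filter, which can raise them. The difference between the origins was itself called for 1119 genes, 7.73% of those tested, and for 1300 of 17033 with the filter over all 18 libraries. Of the anterior rises 271 had such a difference, 254 of them with a smaller or opposite posterior value, and of the anterior falls 422, 390 of them likewise. Since these genes were chosen for a large anterior difference, both the size and the prevailing direction of these counts are partly set by the choice. Plating density changed with origin, so the effect of origin and that of density cannot be told apart.

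WNT-responsive genes rose in both origins, 13 of 19 in each, of which 11 were shared. SP5 averaged 690.3 TPM in pNE_M and 0.0931 TPM in pNE_T, LEF1 162 and 4.14 TPM, and AXIN2 270.2 and 29.6 TPM. DKK1 and APCDD1 reached lower levels in pNE_M than in aNE_M, with means of 94.7 and 39.8 TPM, and the difference between origins was called for both. DKK4 and WIF1 were called in the anterior cells and not in the posterior cells, with an origin difference of -3.03 ± 0.35 (SE, adjusted p = 3.72e-05) for WIF1. CDX2 averaged 249 TPM in pNE_M against 0.696 TPM in pNE_T, and its origin difference was 6.27 ± 0.36 (SE, adjusted p = 6.7e-08).

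Of the midbrain genes, PAX2, PAX3, FGF17 and LMX1B were also called higher in posterior cells, with means of 33.1, 41.0, 26.0 and 5.89 TPM in pNE_M. EN1 had 0 TPM in each pNE_M library, and EN2, CNPY1 and PAX5 had means of 0.0322, 0 and 0.473 TPM there. PAX7 was called higher in posterior cells, at 6.74 TPM against 0.150 TPM, and not called in anterior cells; its origin difference was 3.25 ± 0.24 (SE, adjusted p = 7.07e-07). Of the 12 tested midbrain genes 9 had a called origin difference, as had 15 of the 16 tested forebrain genes. Over all tested genes the share with a called origin difference was 4.29% higher (a posterior difference above the anterior one) and 3.44% lower. Most of these midbrain and forebrain genes were called in the anterior comparison, which enters the difference, so their counts are partly set by it.

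The summed level of the 24 forebrain genes in the forebrain medium was lower in posterior cells, at 117 to 136 TPM in pNE_T against 1328 to 1374 TPM in aNE_T. The sum is weighted towards abundant genes and does not hold for each member. SIX6 and FEZF1 averaged 0.791 and 1.17 TPM in pNE_T. SIX3 fell from a mean of 38.9 TPM in pNE_T to 0.157 TPM in pNE_M. PAX6 was the forebrain gene with the larger posterior fall, from 34.6 to 0.370 TPM (origin difference -2.42 ± 0.30, SE, adjusted p = 6.83e-05). ZIC1 was called in opposite directions, with means of 1.30 TPM in pNE_T and 136 TPM in pNE_M (origin difference 7.04 ± 0.42, SE, adjusted p = 1.03e-07).

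Contractile and related genes fell in posterior cells too, 19 of the 25 by the call, with a median difference of -1.81 against -3.32 in anterior cells. The list was chosen after its anterior values were seen, so the smaller posterior median and count are partly set by that choice. ACTA1 averaged 348 TPM in pNE_T and 4.83 TPM in pNE_M, and its origin difference of 0.66 ± 0.15 (SE) was under the threshold. TAGLN averaged 2229 and 431 TPM, and its origin difference was called (2.64 ± 0.12, SE, adjusted p = 7.29e-09).

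**Figure D5:**
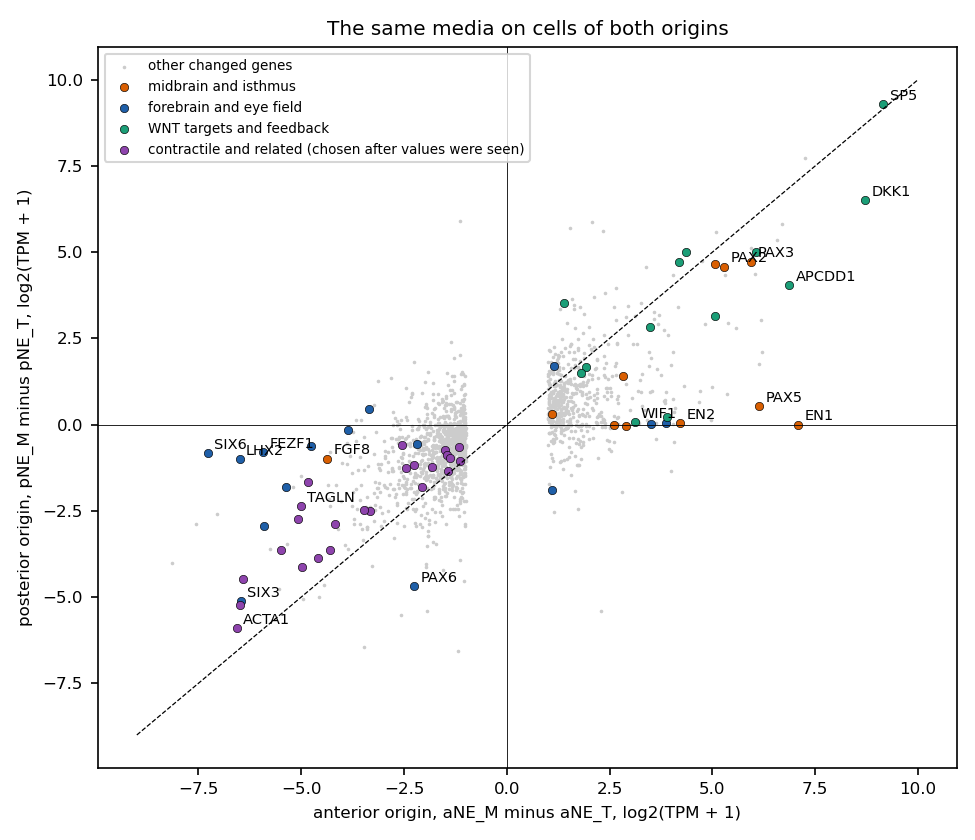
Each point is 1 of the 1707 genes changed in the anterior comparison, with the anterior difference on the x axis and the posterior difference on the y axis, both in log2(TPM + 1); the dashed line marks equal differences. SP5 lies on the line, EN1, EN2 and PAX5 lie near a posterior value of 0, and PAX6 lies below the line.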

How the data were processed

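RNA was purified, selected for poly-A and made into libraries with random hexamer primers, per the labels' protocols. The submitters' processing notes name bcl2fastq, FastQC, Trim Galore, kallisto and deepTools and the genome build hg38, with no versions; the annotation is not given in the sources used here. The authors deposited 1 table of TPM values per gene and library, used here as deposited. Human gene names matched 99.9% of its 29652 symbols. Values were analysed as log2(TPM + 1) with limma (version 3.58.1, in R 4.3.3): 1 mean per group, all 18 libraries, 9 residual degrees of freedom, variances moderated with a trend on mean level, two-sided p-values adjusted by the Benjamini-Hochberg method over the 14485 genes tested. The scripts were tested on simulated data. P-values measure the spread between these samples. Genes named are members of 23 hand-written lists and the 15 largest rises and falls among called genes with a symbol, with non-overlapping groups and a mean of 5 TPM or more in 1 of them. The members and lists were chosen with earlier results of these data known, and the contractile list after its values were seen. A gene under 1 TPM in 1 medium entered the test only through the other. A few list members enter the counts but are not reported here by name. Alternatives were another pseudocount, other filters, other sets of libraries, 2 scalings, calls by adjusted p alone, no variance trend, a replicate term and leaving out each replicate.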

Additional observations from a re-analysis of the deposited data

Results flagged for a closer look

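The difference between origins, that is the posterior midbrain-minus-forebrain difference minus the anterior one on the log2(TPM + 1) scale, was called by the limma interaction for 38 of 49 changed midbrain, forebrain and largest-change genes, beside 7.73% of all tested genes. These genes were chosen for their anterior difference, which enters the interaction, so both the count and the direction are partly set by the choice. The 7.73% is therefore not a like background. Among all genes changed in the anterior comparison, the difference was called for 271 of the 592 rises and 422 of the 1115 falls. In 37 of the 38 the posterior difference was smaller or opposite, and all but 1 of the 38 are named here. Where a group was listed at 0, as for EN1, EN2, DKK1 and RAX, the value depends on the pseudocount. Origin and plating density cannot be told apart.

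Among midbrain and isthmus genes the value was -7.08 for EN1, -5.61 for PAX5, -4.18 for EN2, -2.93 for CNPY1, -2.61 for TAL2, -1.41 for LMX1B, -1.22 for PAX3 and 3.39 for FGF8. Among forebrain and eye-field genes that were lower in aNE_M it was 6.45 for SIX6, 5.50 for LHX2, 5.13 for FEZF1, 3.80 for HESX1, 3.69 for RAX, 3.57 for VAX1, 2.96 for FEZF2, 1.64 for LHX5 and 1.37 for SIX3. PAX6 had -2.42, a larger fall in the posterior cells. Forebrain-list genes that were higher in aNE_M had -3.82 (EMX2), -3.49 (OTX1) and -3.003 (VAX2).

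The other large anterior rises had -5.62 for ZNF503, -4.37 for APLNR, -4.09 for MYO3B, -3.14 for MIXL1, -2.84 for APCDD1, -2.22 for DKK1, -1.65 for EGFLAM and -1.21 for FOXB1. The other large anterior falls had 4.68 for DLK1, 4.47 for FZD5, 4.11 for IGFBP3, 2.15 for ANXA3, 1.94 for both NPPB and PDGFB, 1.84 for MYL7 and 1.26 for ANKRD1.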

How the results depend on the processing

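Calls by adjusted p alone moved the counts most, to 5619 changed genes in the anterior comparison (2622 higher and 2997 lower), 4624 in the posterior comparison and 2035 for the difference between origins. The other alternatives gave 1251 (filter at 5 TPM) to 2039 (pseudocount of 0.1) changed genes in the anterior comparison, and leaving out each replicate gave 1646 to 1774. The median of all tested genes moved from -0.04 to 0.04 under quantile normalization. With the replicate block 1713 genes changed. The correlation of same-numbered deviations between aNE_M and aNE_T was -0.05, and none of 36 group pairs exceeded 0.1. No shared deviation of same-numbered samples was thus seen, which cannot show whether they were made together. Among the tested genes named in the text, 5 that were not called changed sign. Leaving out each replicate gave -0.085 to 0.30 for IRX3, -0.25 to 0.076 for IRX5, -0.25 to 0.12 for MKI67, -0.28 to 0.046 for POU5F1 and -0.013 to 0.29 for PTCH1, and quantile normalization gave 0.14 for IRX5 and 0.081 for POU5F1. With a lone replicate in a group, that library is assumed to vary like the other groups. Leaving out aNE_M replicate 2 took GBX2 out of the hindbrain genes called lower, and CDX2 (0.98, not called) was called higher with a pseudocount of 0.1 (1.95), under quantile normalization (1.36) and without aNE_M replicate 2 or aNE_T replicate 1 (1.01 and 1.02). Read numbers are not known, so differences among genes near 1 TPM rest on the pseudocount and the filter.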

Other observations

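Axon guidance and adhesion genes, which position growing axons and sort cells at boundaries, changed in both directions. Of 34 such genes 29 were tested, 5 were higher and 6 lower in aNE_M, beside 4.09% higher and 7.70% lower among all tested genes. SLIT2, a repellent ligand of ROBO receptors, was at 42.8 and 48.4 TPM in aNE_M and 8.35 and 8.39 TPM in aNE_T, and SLIT3 moved the other way, from 6.48 and 6.41 TPM in aNE_T to 0.798 and 1.10 TPM. The ephrin receptors EPHB3 and EPHB1 rose by 2.29 and 1.67. SEMA5A and SEMA6A, transmembrane semaphorins, fell by 2.97 and 2.00, and NTN1, the netrin ligand, fell from 11.8 and 10.8 TPM to 3.11 and 3.31 TPM. In posterior cells SLIT2 averaged 18.9 TPM in pNE_T and 17.9 TPM in pNE_M, and its origin difference was -2.38 ± 0.16 (SE, limma adjusted p = 2.94e-07).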
